A study of Homo sapiens with 6 samples.

Results

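The collagen chains described here are the non-fibrillar ones, which build basement membranes, beaded microfibrils and anchoring structures rather than the banded fibrils of types I, III and V. They were taken by symbol from the deposited table, as every gene named COL, a type number, A and a chain number, leaving out the fibrillar types. This rule took 8 of the 770 genes: COL4A1, COL4A2 and COL4A6 of type IV, COL6A1, COL6A2 and COL6A3 of type VI, COL7A1 of type VII and COL18A1 of type XVIII. The RNA came from 2 human melanoma lines. One is A375-BRAFV600E/NRASQ61, the A375 line with its BRAF V600E mutation and wild-type NRAS, and the other is A375-BRAFV600E/NRASQ61K, an isogenic derivative that carries NRAS Q61K as well. Both lines carry BRAF V600E and, by their catalogue names, a luciferase reporter, and neither was treated. They were kept in DMEM with fetal bovine serum and used within 5 population doublings of thawing. Each genotype is 1 line with 3 samples, and the labels do not say whether these were separate cultures, so p-values measure only the spread between these samples. Each sample was read on the NanoString nCounter PanCancer Progression panel, which counts fluorescent barcodes hybridized to total RNA, 1 probe set to a gene.

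Collagens are trimers of alpha chains. Type IV chains join into a flexible network that is the scaffold of the basement membrane, to which laminins, nidogens and perlecan attach, and its usual form combines the alpha-1 and alpha-2 chains. Type VI forms beaded microfibrils next to basement membranes from alpha-1, alpha-2 and alpha-3 chains, type VII forms the fibrils that anchor the epidermal basement membrane to the dermis, and type XVIII is a basement membrane proteoglycan whose carboxy-terminal fragment is endostatin. Melanoma cells meet these proteins when they cross the epidermal basement membrane and the walls of vessels.

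Unscaled totals were 1224140 to 1264660 counts in the wild-type samples and 1158510 to 1189610 in the Q61K samples. The authors' scaling multiplied wild-type samples by 0.898 to 0.903 and Q61K samples by 1.11 to 1.16, which raises the Q61K line against the wild-type line in every gene. The detection floor, the mean plus 2 SD of the negative control probes, was 129.7 counts, and 454 of 740 endogenous genes had a mean above it. Of these tested genes 62.1% were called higher and 20.9% lower in the Q61K line (limma, adjusted p under 0.05). The median log2 difference of all tested genes was 0.32 as deposited. Of 16 melanoma and melanocyte markers 4 were on the panel (MCAM, CSPG4, ERBB3 and SOX9), all above the floor. Their summed counts were 3422 to 3459 in wild-type and 8544 to 8984 in Q61K samples.

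Of the 8 chains 5 had means above the floor in both lines, COL4A1, COL4A2, COL6A1, COL6A2 and COL18A1, and these 5 were called higher in the Q61K line, against the 62.1% of all tested genes called in that direction. Of the 411 genes above the floor in both lines 61.6% were called higher. The median log2 difference of the 5 chains was 1.99, against 0.31 over those 411 genes. COL6A1 and COL6A2 of type VI differed most, the type IV chains less and COL18A1 least. COL6A3 passed the filter on the mean only through its Q61K counts, so it is given as values with a bound and left out of the counts. COL7A1 stayed below the floor in both lines, and COL4A6 never left the lowest value of each sample. In bulk RNA, more cells that express a gene and more of its RNA per cell cannot be told apart.

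**Figure D1:**
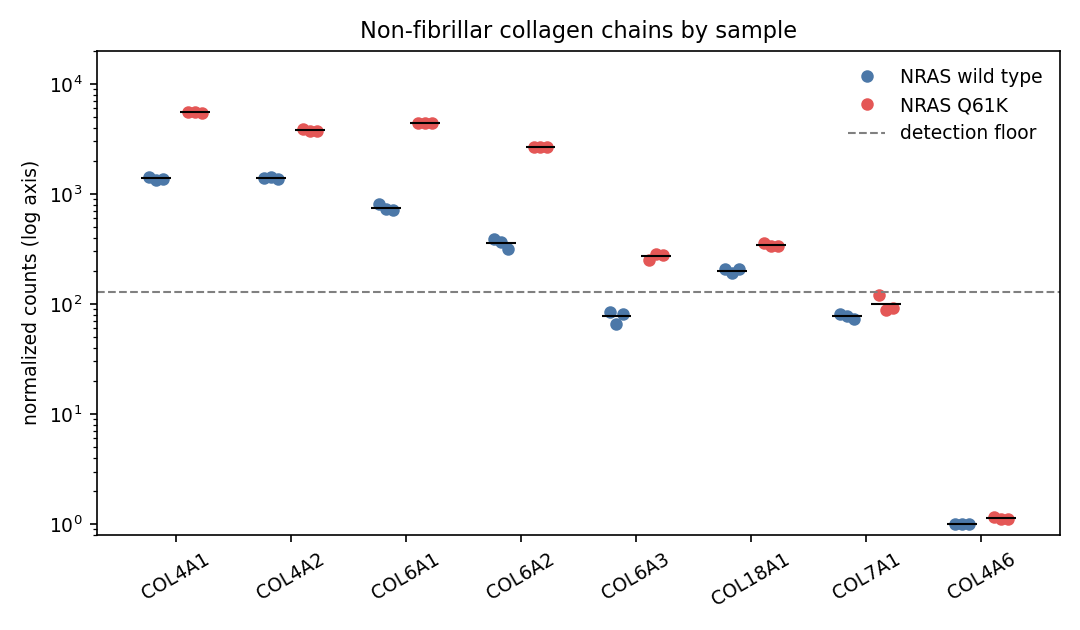
Normalized counts of each non-fibrillar collagen chain in each sample, on a log axis. Points are samples, black bars are means of 3 samples and the dashed line is the detection floor of 129.7. In COL4A1, COL4A2, COL6A1, COL6A2 and COL18A1 the Q61K points lie above all wild-type points, as in 63.0% of tested genes. Those of COL6A3 and COL7A1 do so too, but their wild-type points are under the floor. COL7A1 is under the floor in every sample, and the COL4A6 points are each sample's lowest value.

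The COL4A1 and COL4A2 genes encode the alpha-1 and alpha-2 chains of the common type IV trimer and are transcribed away from each other from a shared promoter region on chromosome 13. No other protein-coding gene lies between them. RefSeq (GRCh38.p14) places 126 bases between their starts, at chr13:110307158-110307283. The region is shown because both genes are started from it, on the strand of COL4A2, and capitals mark a CCAAT box (CCAAT) and a GC box (GGGCGG), each searched on both strands.
Between COL4A1 and COL4A2: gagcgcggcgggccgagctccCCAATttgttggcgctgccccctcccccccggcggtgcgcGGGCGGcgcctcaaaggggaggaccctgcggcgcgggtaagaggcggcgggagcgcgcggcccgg
The 126 bases before the start held a CCAAT box in 21.1% and a GC box in 34.6% of the 35114 RefSeq promoter windows, and neither a TATA motif (TATAAA) nor an AP-1 motif (TGANTCA) was found in the region above. Its GC content was 80.2%, against a median of 60.3% over those windows.

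COL4A1 had 1437, 1339 and 1372 normalized counts in the wild-type samples and 5607, 5529 and 5380.2 in the Q61K samples. The 3 samples of each line lay close together, and the lines were far apart. The means were 1383 ± 50.2 and 5505 ± 115 (SD, n = 3 each), a 3.98-fold difference (log2 difference 1.99, SE 0.04, limma adjusted p = 7.67e-08). COL4A2 had 1389.6, 1429 and 1367 counts in wild-type and 3882, 3744 and 3722 in Q61K samples. These groups did not overlap either. The means were 1395 ± 31.1 and 3783 ± 86.9, which is 2.71-fold higher in the Q61K line (log2 difference 1.44, SE 0.03, adjusted p = 1.52e-07).

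The chains that share this promoter region thus did not differ by the same factor. A ratio of counts within 1 sample is not changed by a scaling that multiplies the whole sample by 1 factor, as the deposited one does, though quantile normalization can change it. Counts of different probes are not levels on 1 scale, and only the change of a ratio between lines is read here. The ratio of COL4A2 to COL4A1 counts was 0.967, 1.07 and 0.997 in wild-type and 0.692, 0.677 and 0.692 in Q61K samples. Every Q61K sample lay below every wild-type sample. For this and the ratios below, the share of all gene pairs that separate the lines was not computed. Separation is therefore not read as particular to these chains. The log2 ratio was lower by 0.56 in the Q61K line (difference -0.56, 95% interval -0.68 to -0.43), so the rise of COL4A1 was 1.47 times that of COL4A2. After quantile normalization the difference was -0.51. An exact permutation test, 2-sided, gave p = 0.1, the smallest that 3 samples against 3 allow, and 0.114 after adjustment over the 8 pairs of chains compared. No pair could therefore pass a threshold of 0.05.

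COL4A6, which encodes the alpha-6 chain found in epithelial basement membranes together with alpha-5, stood at each sample's lowest value, which is 1 in the wild-type and 1.11 to 1.16 in the Q61K samples, and gives no fold. The other type IV chains were not among the genes of the panel. Type IV expression in these lines was thus read through COL4A1 and COL4A2 alone.

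The 3 type VI chains join into 1 trimer but are encoded in different places, COL6A1 and COL6A2 next to each other on chromosome 21, with no other protein-coding gene between, and COL6A3 on chromosome 2. RefSeq promoter windows were at hand for COL6A2 and COL6A3. The 250 bases before each start are given to show how unlike these upstream sequences are, with the motifs named above in capitals. COL6A2 lies at chr21:46097862-46098111 on the plus strand and COL6A3 at chr2:237414165-237414414 on the minus strand (GRCh38.p14).
COL6A2: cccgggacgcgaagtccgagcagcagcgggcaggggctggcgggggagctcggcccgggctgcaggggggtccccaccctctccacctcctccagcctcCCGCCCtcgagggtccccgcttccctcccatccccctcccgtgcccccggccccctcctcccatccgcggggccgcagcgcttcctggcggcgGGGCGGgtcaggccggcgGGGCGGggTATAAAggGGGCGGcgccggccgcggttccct
COL6A3: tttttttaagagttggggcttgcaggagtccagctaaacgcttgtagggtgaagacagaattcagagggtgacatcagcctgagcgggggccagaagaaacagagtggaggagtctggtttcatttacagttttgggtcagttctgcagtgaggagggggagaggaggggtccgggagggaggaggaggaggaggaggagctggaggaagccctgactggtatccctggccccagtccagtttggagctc
The COL6A2 window held 4 GC boxes and 1 TATA motif at 79.6% GC, and the COL6A3 window held none of the 4 motifs at 56.0% GC. Over all windows of 250 bases 42.6% held a GC box, 32.01% a CCAAT box, 10.7% a TATA motif and 6.57% an AP-1 motif, and the median GC content was 58.0%. These matches describe letters in a window and not bound sites.

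COL6A1, the alpha-1 chain, had 818, 722 and 713 counts in wild-type and 4395, 4376 and 4425 in Q61K samples. The Q61K samples were within a few percent of each other, with a coefficient of variation of 0.564% against 7.72% in the wild-type line. The means were 751 ± 58.0 and 4399 ± 24.8 (SD, n = 3 each), 5.86-fold higher in Q61K (log2 difference 2.55, SE 0.06, limma adjusted p = 1.41e-07). COL6A2, the alpha-2 chain, had 389, 363 and 314 counts in wild-type and 2646, 2666 and 2689 in Q61K samples. Here too the wild-type samples were the more spread, and the lines did not come near each other. The means were 355 ± 37.7 and 2667 ± 21.4, a 7.51-fold difference (log2 difference 2.91, SE 0.08, adjusted p = 2.72e-07), the largest of the 5 chains and the 13th highest rise of the 454 tested genes.

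COL6A3 encodes the long alpha-3 chain, from which the soluble fragment endotrophin is cut. It had 84.4, 65.7 and 80.9 counts in wild-type and 249.5, 286 and 279 in Q61K samples. The wild-type samples were below the detection floor and the Q61K samples above it, so only a bound can be given. COL6A3 was at least 2.10-fold higher in the Q61K line (means 77.0 ± 9.90 and 272 ± 19.6). Its test is not used, because its high Q61K counts alone brought it into the fit.

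Within the type VI family the chains again differed by unequal factors. The ratio of COL6A1 to COL6A2 counts was 2.10, 1.99 and 2.27 in wild-type and 1.66, 1.64 and 1.65 in Q61K samples, with no overlap. The log2 ratio differed by -0.36 (95% interval -0.51 to -0.21), so COL6A2 rose 1.28 times as much as COL6A1 (exact permutation p = 0.1, adjusted 0.114), and by -0.39 after quantile normalization. Against COL4A1, the COL6A1 ratio was 1.47 times and the COL6A2 ratio 1.89 times as high in the Q61K line (log2 differences 0.56, 95% interval 0.44 to 0.68, and 0.92, 0.69 to 1.15). Both ratios were higher in every Q61K sample than in every wild-type sample. The 3 ratios that involve COL6A3 were computed but are not read, since its wild-type counts were under the floor.

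**Figure D2:**
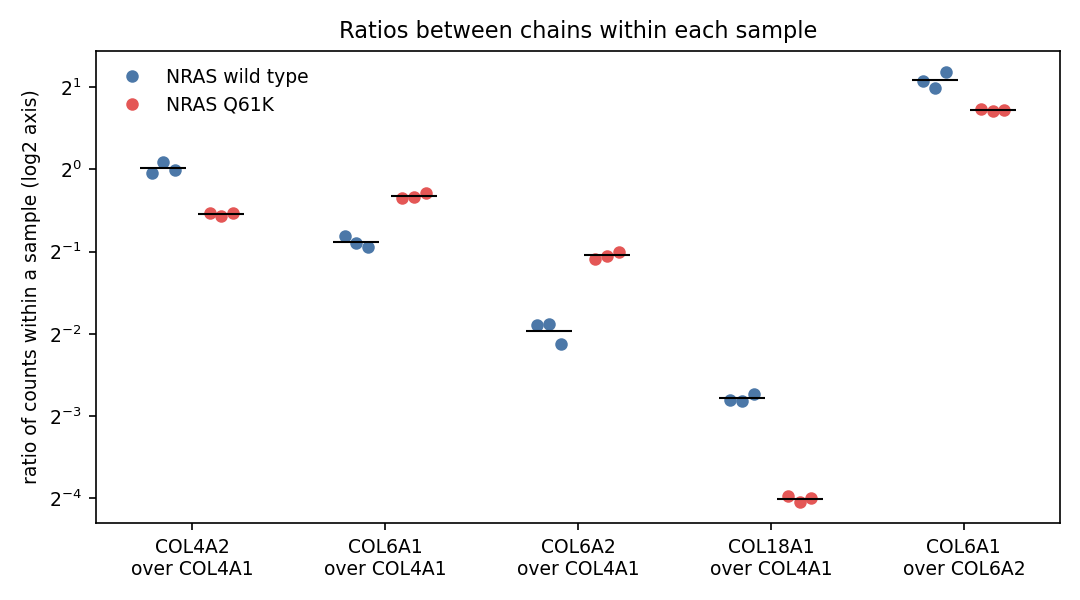
Ratios of counts between chains within each sample, on a log2 axis, with samples as points and means of 3 samples as black bars. In the Q61K line COL4A2 and COL18A1 are lower and COL6A1 and COL6A2 higher relative to COL4A1, and COL6A1 is lower relative to COL6A2. The lines do not overlap in these pairs, but how often they overlap in other gene pairs was not computed.

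COL18A1, the type XVIII chain, lies on chromosome 21 as COL6A1 does, with 1 protein-coding gene lying wholly between them. It had 206, 190.3 and 207 counts in wild-type and 356, 336 and 338 in Q61K samples. Both lines were above the floor and did not overlap. The means were 201 ± 9.38 and 343 ± 11.2 (SD, n = 3 each), 1.71-fold higher in Q61K (log2 difference 0.77, SE 0.05, limma adjusted p = 9.51e-06). Its place in the order of rises was 117 of 454, below the other 4 of these chains, which ranked from 13 to 62. The COL18A1 to COL4A1 ratio was 0.144, 0.142 and 0.151 in wild-type and 0.0636, 0.0608 and 0.0628 in Q61K samples. The log2 ratio differed by -1.22 (95% interval -1.31 to -1.14), a 2.34-fold smaller rise than that of COL4A1 (exact permutation p = 0.1, adjusted 0.114).

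COL7A1, the chain of anchoring fibrils, had 80.8, 77.5 and 73.7 counts in wild-type and 121, 87.5 and 92.4 in Q61K samples. Every one of these values was under the floor of 129.7, so no fold is given. The means were 77.3 ± 3.56 and 100.2 ± 17.8, and 1 Q61K sample stood above the other two. With no floor the difference did not pass (log2 difference 0.36, limma adjusted p = 0.0658), and without the sample factors it was 0.03.

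Because the deposited scaling raises the Q61K line, each chain was also compared under other scalings. Without the sample factors 38.5% of tested genes were called higher, after equalising the sample medians 33.0% and after quantile normalization 34.4%. The 5 chains above the floor in both lines were called higher under each of these as well (limma). Their median log2 difference was 1.66, 1.54 and 1.55 in that order, while that of the 411 genes above the floor in both lines was -0.02, -0.14 and -0.12. COL6A2 fell from 2.91 as deposited to between 2.46 and 2.58, COL6A1 to between 2.10 and 2.22, COL4A1 to between 1.54 and 1.66 and COL4A2 to between 0.99 and 1.11. COL18A1 moved furthest in proportion, from 0.77 to 0.44, 0.32 and 0.29, the last with an adjusted p of 0.00159, the highest in a range from 1.07e-09 over its alternatives. In each of these 5 chains all Q61K samples lay above all wild-type samples as deposited, as was the case for 63.0% of tested genes.

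**Figure D3:**
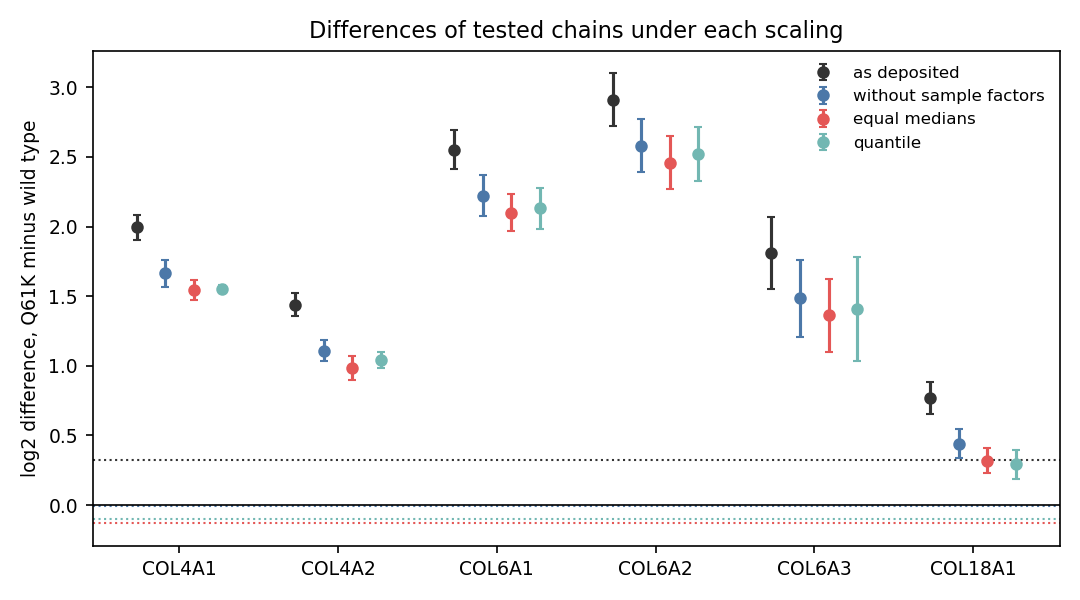
Log2 difference (Q61K minus wild type) of 6 chains under 4 scalings, with 95% intervals from limma. Dotted lines are the medians of all 454 tested genes under the same scaling, 0.32 as deposited and between -0.13 and -0.01 otherwise. The fitted values of COL6A3 rest on wild-type counts under the floor and are not read. The intervals of the other 5 chains lie above 0, and COL18A1 lies nearest to it.

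Among fibrillar chains 5 were in the table and 2 were tested. COL5A2, a chain of type V, was 2.42-fold higher (2289.7 ± 13.03 and 5552 ± 93.8 counts, log2 difference 1.28), which is between COL18A1 and COL4A2, and was called higher under each scaling. COL5A1 was not called as deposited (345 ± 11.4 and 354 ± 7.26 counts) and was called lower under the other 3 scalings. COL1A1, COL1A2 and COL3A1 were below the floor in both lines.

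Genes that attach to or surround type IV collagen were mostly higher. Of 12 other basement membrane genes on the panel 9 were tested. Of these, FBLN1, the fibulin 1 gene, was above the floor in the Q61K line only and LAMA1 in the wild-type line only, so both are left out of the counts. The other 7 were all called higher, with a median log2 difference of 1.04. Of the 411 genes above the floor in both lines 61.6% were. SPARC, a collagen-binding matricellular protein, was 3.29-fold higher (10869 ± 271 and 35709 ± 372 counts), the laminin alpha-5 gene LAMA5 5.17-fold (380.2 ± 35.9 and 1965 ± 26.3) and the laminin gamma-1 gene LAMC1 2.05-fold (4634 ± 59.6 and 9499 ± 284). LAMA1, the laminin alpha-1 gene, was lower (176 ± 5.74 and 126 ± 15.4), with a wild-type mean 1.35 times the floor. FBLN1 was at least 2.26-fold higher (27.8 ± 5.63 and 293 ± 5.23). Under each of the other scalings 6 of these 7 genes were called higher and none lower, with LAMB3, a laminin beta-3 gene, not called, against 30.4 to 36.5% called higher of the 411 genes above the floor in both lines.

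Of 6 genes for collagen folding, modification and cross-linking on the panel 4 were tested, and LOXL2 was above the floor in the Q61K line only. The other 3 were called higher as deposited, where 62.1% of all tested genes were, with a median log2 difference of 0.41. Under each of the other scalings 1 of them was called higher, where 30.4 to 36.5% of the 411 genes above the floor in both lines were. P3H1, a collagen prolyl 3-hydroxylase, was 1.73-fold higher (1340.3 ± 40.8 and 2322 ± 7.48 counts), and LOXL2, a lysyl oxidase that cross-links type IV collagen, at least 1.66-fold (118 ± 6.67 and 215 ± 11.7). P3H1 kept its call under each other scaling, and the test of LOXL2 is not used. SERPINH1, the collagen chaperone HSP47, was 1.33-fold higher as deposited (2032 ± 43.0 and 2700.3 ± 95.2), did not pass under the other scalings and had a negative difference after equalising the medians. PXDN, the peroxidasin that forms sulfilimine bonds in type IV collagen, was 1.14-fold higher as deposited (292 ± 24.6 and 332 ± 7.45), was not called without the sample factors, and was called lower after equalising the medians and after quantile normalization.

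Of 9 collagen receptor genes on the panel 7 were tested, and 5 (71.4%) were called higher and 2 lower, near the 62.1% and 20.9% of all tested genes, with a median log2 difference of 0.48. ITGA1, the integrin alpha-1 subunit that binds type IV collagen, was 33.2-fold higher (971 ± 41.9 and 32266 ± 257 counts). CSPG4, a proteoglycan that binds type VI collagen, was 3.34-fold higher (1303 ± 24.2 and 4355 ± 101) and DDR2, a receptor tyrosine kinase for fibrillar collagens, 2.05-fold (1569.6 ± 54.9 and 3220.2 ± 111). The lower genes were ITGA2, the integrin alpha-2 subunit, by 1.29-fold (1519.6 ± 12.1 and 1183 ± 28.1) and CD44, a hyaluronan receptor, by 1.06-fold (9516 ± 163 and 9005 ± 96.9). ITGA1, CSPG4, DDR2, ITGA2 and CD44 kept their direction and call under every scaling. The other receptor genes called higher, the integrin beta-1 gene ITGB1 and the adhesion receptor gene GPR56, were no longer called after equalising the medians or after quantile normalization.

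Of 12 genes for proteases that cut basement membrane collagens 8 were tested. As deposited 5 (62.5%) were called higher and 2 lower, with a median log2 difference of 0.34, which is the level of all tested genes (62.1%, median 0.32). Under the other scalings 2 (25.0%) were called higher and 3, 4 and 4 lower, in the order given above, with medians of 0.01, -0.11 and -0.07. Of all 454 tested genes 38.5, 33.0 and 34.4% were then called higher, and 160, 206 and 199 genes lower. MMP2, the type IV collagenase gelatinase A, was 1.49-fold higher (2193 ± 6.10 and 3268 ± 53.3 counts). MMP14, the membrane protease that activates it, was 1.35-fold higher as deposited (1528 ± 66.5 and 2064 ± 51.9), did not pass under the other scalings and had a negative difference after equalising the medians. Also called higher as deposited were MMP9, by 1.92-fold (191 ± 21.1 and 368 ± 36.6), PLAU and ADAM15. MMP2 and MMP9 kept their call under each other scaling. PLAU was called under none of them, and ADAM15 was called lower after equalising the medians and after quantile normalization. The genes called lower as deposited were MMP3, stromelysin 1, by 2.20-fold (1088 ± 14.1 and 495 ± 65.6) and the cathepsin gene CTSL by 1.11-fold (3666 ± 29.6 and 3306 ± 90.0). ADAM9 was not called as deposited (1762 ± 56.9 and 1808.5 ± 50.6) and was called lower under the other 3 scalings.

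TGF-beta is a known inducer of collagen genes in many cell types. Of 13 TGF-beta and SMAD genes on the panel 11 were tested, and 10 of these were above the floor in both lines. All 10 were called higher, with a median log2 difference of 0.60, where 61.6% of the 411 genes above the floor in both lines were. Without the sample factors 6 were called higher and none lower, where 36.5% of those 411 genes were called higher and 148 lower. After equalising the medians 6 were called higher and 3 lower (30.4% and 194 of the 411). After quantile normalization 4 were called higher and 3 lower (31.9% and 187 of the 411). TGFBI, a collagen-binding matrix protein induced by TGF-beta, was 4.10-fold higher (4032 ± 93.0 and 16541 ± 52.8 counts), the ligand gene TGFB1 1.90-fold (1529 ± 3.28 and 2908 ± 44.0) and the receptor gene TGFBR2 1.71-fold (1129 ± 18.5 and 1931 ± 26.9). These 3 were called higher under every scaling. TGFB2, another ligand gene, was lower (184 ± 21.8 and 107 ± 3.07). It was above the floor in the wild-type line only, with a mean there 1.42 times the floor.

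**Figure D4:**
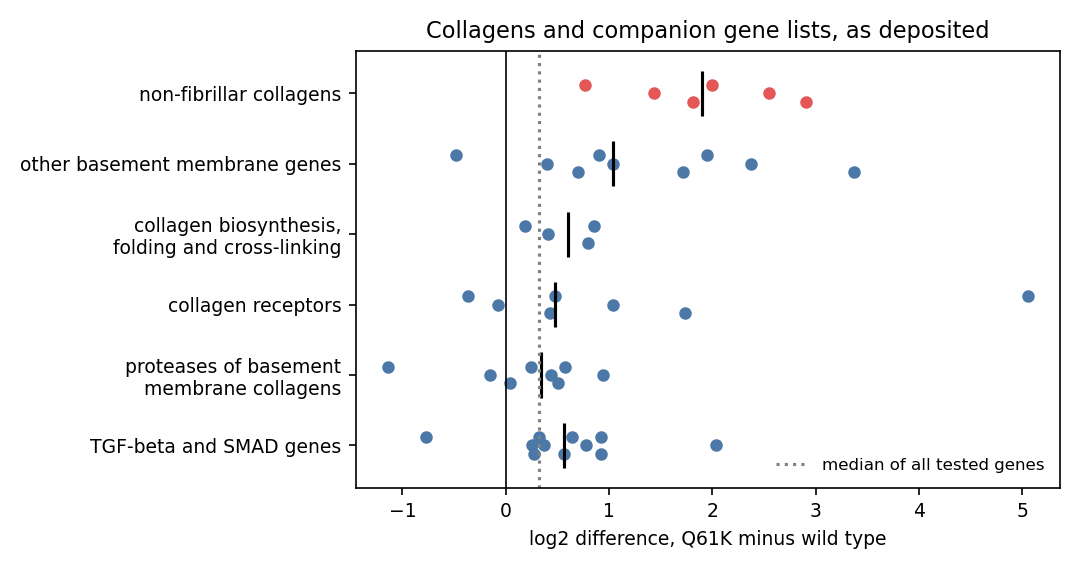
Log2 difference (Q61K minus wild type, as deposited) of each tested gene of the non-fibrillar collagens and of 5 related gene lists. Black bars are list medians, from 1.90 for the 6 collagen chains drawn (1.99 without COL6A3) to 0.34 for the proteases, and the dotted line is the median of all tested genes, 0.32. Fitted values of genes under the floor in 1 line, such as COL6A3 and LAMA1, depend on the pseudocount.

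For each tested chain the other tested genes outside the collagens were ranked by how closely their log2 profile followed it over the 6 samples, as the root mean square difference after centring each gene on its mean. Such a distance mostly reflects how far the lines are apart. COL4A1 was nearest to TGFBI (0.03) and SH2B3, a signalling adaptor (0.04). COL4A2 was nearest to AKAP12, a kinase-anchoring scaffold, and HIPK2, a nuclear kinase (0.03 each). COL6A1 was nearest to GSN, the actin-severing protein gelsolin (0.04), and TNC, the matrix glycoprotein tenascin C (0.06). COL18A1 was nearest to MGAT5, a glycan-branching enzyme, and the adhesion molecule gene MCAM (0.04 each). The nearest gene to COL6A2 was ERBB3, a receptor tyrosine kinase (0.14), farther off than for the chains above. The next gene, ITGA7, and the profile of COL6A3 with its nearest genes, LAMA4 and FLT1, rest in part on wild-type counts under the floor, so no distance is given for them.

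Fibroblasts, mural cells and endothelial cells are rich sources of type IV and VI collagen, so their markers were read beside the chains. The floor is applied here to the mean over all samples, and sums are over all markers on the panel, also those under the floor. Of 12 fibroblast and mural markers 9 were on the panel and 4 above the floor. Of these, DCN was above it in both lines. PDGFRB (means 91.4 and 686), LUM (93.8 and 463) and FAP (113 and 149) were above it in the Q61K line only. Summed counts were 615 to 645 in wild-type and 1599 to 1841 in Q61K samples, and COL1A2 was at the minimum in both lines. COL1A1 had 2.69 to 9.78 counts in wild-type and 15.1 to 25.4 in Q61K samples, under the floor. Of 14 endothelial markers 8 were on the panel and 5 above the floor, with sums of 869 to 957 and 1409.9 to 1622. KDR and FLT1 were above the floor in the Q61K line only. TIE1, TEK and EMCN were under the floor in both lines, with means of 1 in the wild-type line and 90.3, 12.6 and 3.55 in the Q61K line. Of those above it in both lines, ROBO4 was lower in the Q61K line (means 269 and 173). PECAM1 (238 and 316) and CD34 (258 and 294) had higher means there. Of 12 leukocyte markers 3 were on the panel and none was above the floor (sums of 94.4 to 131 and 113 to 160.1), with PTPRC at the minimum. Of 12 epithelial markers 9 were on the panel and 2, CLDN4 and CLDN7, above the floor (sums of 712 to 808 and 2099 to 2177). EPCAM, CDH1 and OCLN were at the minimum. KRT7 had means of 122 in the wild-type and 42.6 in the Q61K line, both under the floor as set, the first close to it. The part of the fibroblast, endothelial and epithelial markers in the rise of the collagens was not tested.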

How the data were processed

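The authors deposited 1 table of normalized signal on a linear scale, read here as normalized counts, with 784 rows (770 genes, 8 negative and 6 positive controls) for 6 samples. Software and settings are not given in the sources used here. From the deposited values, each gene value is a background-subtracted count times 1 factor per sample, with a minimum of 1 (100% of values between 1.5 and 400 were whole steps within 0.03), which sets the 30 housekeeping genes (known for this panel, not marked in the table) to a geometric mean of 728 to 733. Groups and replicate numbers came from the titles.

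Endogenous genes with a mean over 6 samples above the floor (31.7 + 2 × 49.0) entered a linear model on log2(value + 1) with moderated variances (limma 3.58.1, R 4.3.3, 2-sided), with Benjamini-Hochberg adjustment over 454 genes. Such log2 differences understate changes of low genes. Folds are ratios of means. Where 1 line was under the floor, the brighter mean over the floor is given. The control rows appear not to carry the sample factors, since their values end in the fractions of unscaled gene values. The floor is then somewhat high for the scaled wild-type values and low for the scaled Q61K values. Genes near it could change side, and for genes lower in the Q61K line the value is not a safe bound. Ratios of chains were compared by exact permutation in SciPy 1.17.1, with intervals from the pooled SD. The fit was tested on simulated data. Alternatives were other scalings, pseudocounts and floors, an intensity trend, the replicate number as a block and leaving out each sample.

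Named genes are every chain, the 3 genes of each list with the smallest adjusted p, and the 2 nearest profiles of each chain. Members of counts of 5 or fewer genes called as deposited were named after their values were seen, as were PXDN, ADAM9 and the fibrillar chains. The members and lists were chosen with earlier results of these data known. Promoter windows are from RefSeq (7 of 8 genes matched). All 8 symbols matched GRCh38.p14.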

Additional observations from a re-analysis of the deposited data

How the results depend on the processing

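The 5 chains above the floor in both lines kept their direction and call in every alternative of the fit, 75 results in all. COL6A3, which passed the filter through its Q61K counts alone, was not tested with the floor at 3 SD (178.7 counts). Counting only genes above the floor in both lines, an alternative chosen after seeing the data, left 253 called higher and 84 lower of 411. Over all genes, 282 were called higher and 95 lower as deposited, 175 and 160 without the sample factors, 150 and 206 after equalising the medians, and 156 and 199 after quantile normalization. In that order, the genes called higher were 1, 1 and 1 (3 as deposited) for collagen folding and cross-linking, without LOXL2. They were 2, 2 and 2 (5) for the proteases and 6, 6 and 4 (10) for TGF-beta and SMAD genes. Collagen receptors went from 5 to 3 after equalising the medians and after quantile normalization. The cause is in the construction: these scalings lower most Q61K values. COL7A1, under the floor, went from 0.36 to 0.03, -0.09 and 0.03 (log2), also chosen after seeing the data. Leaving out 1 sample kept the 5 chains called and gave 258 to 284 genes higher and 91 to 97 lower. The ratio of COL4A2 to COL4A1 then ranged from -0.59 to -0.51 and that of COL6A1 to COL6A2 from -0.40 to -0.31 (log2 difference), each a value whose exact test cannot pass. With the replicate number as a block, 299 genes were called higher and 93 lower, and the 5 chains stayed called. Same-numbered samples had correlations of deviations of 0.22, 0.05 and 0.07, against -0.17 to 0.09 for samples of different number. Of 6 samples 4 correlated best with their own number. The titles do not say that the numbers pair samples, and the main fit did not use them. Chains near the floor are limited by the negative controls: 2 of 8 read 75.5 to 143.8 and set the floor, and the others read at most 24.8.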
